A study of Mus musculus with 6 samples.

Results

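The genes described here carry fatty acids from the blood to the mitochondrion, break them down and set how much of the pathway is made. They are 33 genes of uptake, carnitine transport, beta-oxidation and its control by the receptor PPAR alpha, chosen by name. Each of the 33 had 1 probe set among the 20239 probe sets with 1 gene symbol, so all were measured. RNA came from heart ventricles of male mice of the 129/Sv strain at 3.5 weeks of age and was read on Affymetrix Mouse Gene 1.0 ST arrays. There were 3 mice labelled Hspa4-/-, a genotype without the cytosolic chaperone Hspa4, and 3 labelled Hspa4+/+, called wild type here. The labels give 3 mice for each genotype, so p-values measure the spread between these mice, and their number limits the precision. The sources used here do not say how the allele was made. The arrays ask how loss of this chaperone alters ventricular expression, and here the question is put to fat metabolism.

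The heart burns fatty acids for most of its energy after weaning. Fatty acids released from lipoproteins or taken up through the cell membrane are joined to coenzyme A, passed through the mitochondrial membranes as carnitine esters, and shortened in a cycle of dehydrogenation, hydration, a further dehydrogenation and thiolysis. PPAR alpha, with the coactivators Ppargc1a and Ppargc1b and the receptor Esrra, drives transcription of most of these genes, and fasting raises many of them, Pdk4 and Ucp3 among them.

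The level of Hspa4 checks the labels. Wild-type mice gave log2 values of 9.74, 9.50 and 9.48, and replicates 2 and 3 of the Hspa4-/- label gave 6.63 and 6.75. Replicate 1 of that label gave 9.33, close to wild type and against its label. Xist, a transcript of female cells, was at 7.68 for that mouse, whereas the remaining male-labelled mice ranged from 5.51 to 5.69. Eif2s3y, a gene of the Y chromosome, was at 7.96 for that mouse and at 8.23 to 8.39 for the others, so both signals were present there. The main counts and the differences of the 33 genes, where printed, are given on all 6 arrays and on the 5 left without that array, which share samples and are not independent. The tissue label was checked against markers. The 9 ventricular cardiomyocyte markers had mean log2 values between 10.32 and 13.31, while the adipocyte gene Adipoq lay between 5.41 and 5.64, near the lowest value of the table, 4.76. Those 9 cardiomyocyte markers all had a higher mean on the arrays labelled Hspa4-/-, with a summed linear level of 47050 to 49336 against 43110 to 45859 in wild type. They were 7 higher and 2 lower of 9 on 5 arrays after quantile normalisation. Of the other cell types, summed levels were 1062 to 3221 on the arrays labelled Hspa4-/- against 696 to 892 in wild type for 5 atrial markers, 744 to 915 against 726 to 808 for white and 536 to 554 against 518 to 531 for brown adipocyte markers, and 4338 to 4905 against 4483 to 4678 for fibroblast markers. They were 1350 to 1414 against 1350 to 1484 for macrophage, 536 to 582 against 547 to 592 for skeletal muscle and 300.2 to 320 against 302 to 341 for erythroid markers. Such sums hide single genes. Of the 6 brown adipocyte markers, 2 were higher and 4 lower on 6 arrays. Cidea (0.20) and Prdm16 (0.06) were higher and Ucp1 (−0.04) lower without overlap, beside 6.08% and 9.07% of all genes. Elovl3, Dio2 and Zic1 overlapped. With array medians subtracted, 0 of the 6 were free of overlap on 6 arrays. Of the atrial markers, Nppa was higher (difference 1.80; 2.32 on 5 arrays, limma, adjusted p = 0.0127), Myl1 was lower without overlap (−0.52) and Sln, Myl4 and Myl7 overlapped. Of the 8 macrophage markers, Adgre1 (−0.21), Csf1r (−0.23) and Cd68 (−0.07) were lower without overlap on 6 arrays, beside 9.07% of all genes. C1qc went the other way, by 0.21 with overlap on 6 arrays and by 0.27 without overlap on 5. C1qa, C1qb, Fcgr1 and Lyz2 overlapped on 6 arrays. The part of any of these in the results below was not tested. In such bulk tissue, fewer cells of a type and less RNA per cell cannot be told apart.

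No gene of the 33 passed the threshold, an adjusted p under 0.05, on 6 arrays or on 5 (limma, Benjamini-Hochberg over 20239 genes). Over all genes the share past it was 0% on 6 arrays and 0.44% on 5. At an unadjusted p under 0.05 there were 8 of 33 on 6 arrays, or 24.2%, where 11.2% of all genes did so, and 9 of 33 on 5 arrays, or 27.3%, where 14.9% did. The 8 were 4 higher and 4 lower, beside 5.64% and 5.53% of all genes. The 9 were 3 higher and 6 lower, beside 8.55% and 6.36%. Groups were free of overlap in 7 of the 33 on 6 arrays, or 21.2%, beside 15.1% of all genes. On 5 arrays this held for 17 of 33, or 51.5%, beside 33.3% of all genes.

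Direction within the pathway was mixed, and the median hid it. The median log2 difference of the 33 was −0.019 on 6 arrays and −0.0039 on 5, beside −0.0094 and −0.018 over all genes. With quantile normalisation it was −0.037 and −0.045, beside 0.00092 and −0.00051 over all genes, so its place against all genes on 5 arrays depended on the scaling. With fewer arrays, 12 of the 33 were lower without overlap, or 36.4%, beside 18.9% of all genes, and 5 were higher, or 15.2%, beside 14.4%. These counts were 12 lower and 2 higher with quantile normalisation, beside 3103 and 3026 of all 20239 genes. With array medians subtracted they were 9 lower and 5 higher, beside 3546 and 2973 of all genes. On 6 arrays the counts were 5 lower, or 15.2%, beside 9.07% of all genes, and 2 higher, or 6.06%, beside 6.08%. Without overlap on 5 arrays, the lower genes were mostly transport and oxidation enzymes, and the higher were Ppargc1b, Esrra, Ppara, Hadh and Cpt1b. On 6 arrays the higher were Ppargc1b and Esrra. With quantile normalisation on 5 arrays, the higher were 1 regulator, 1 beta-oxidation gene and 0 carnitine shuttle genes, so this split depended on the scaling.

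**Figure D1:**
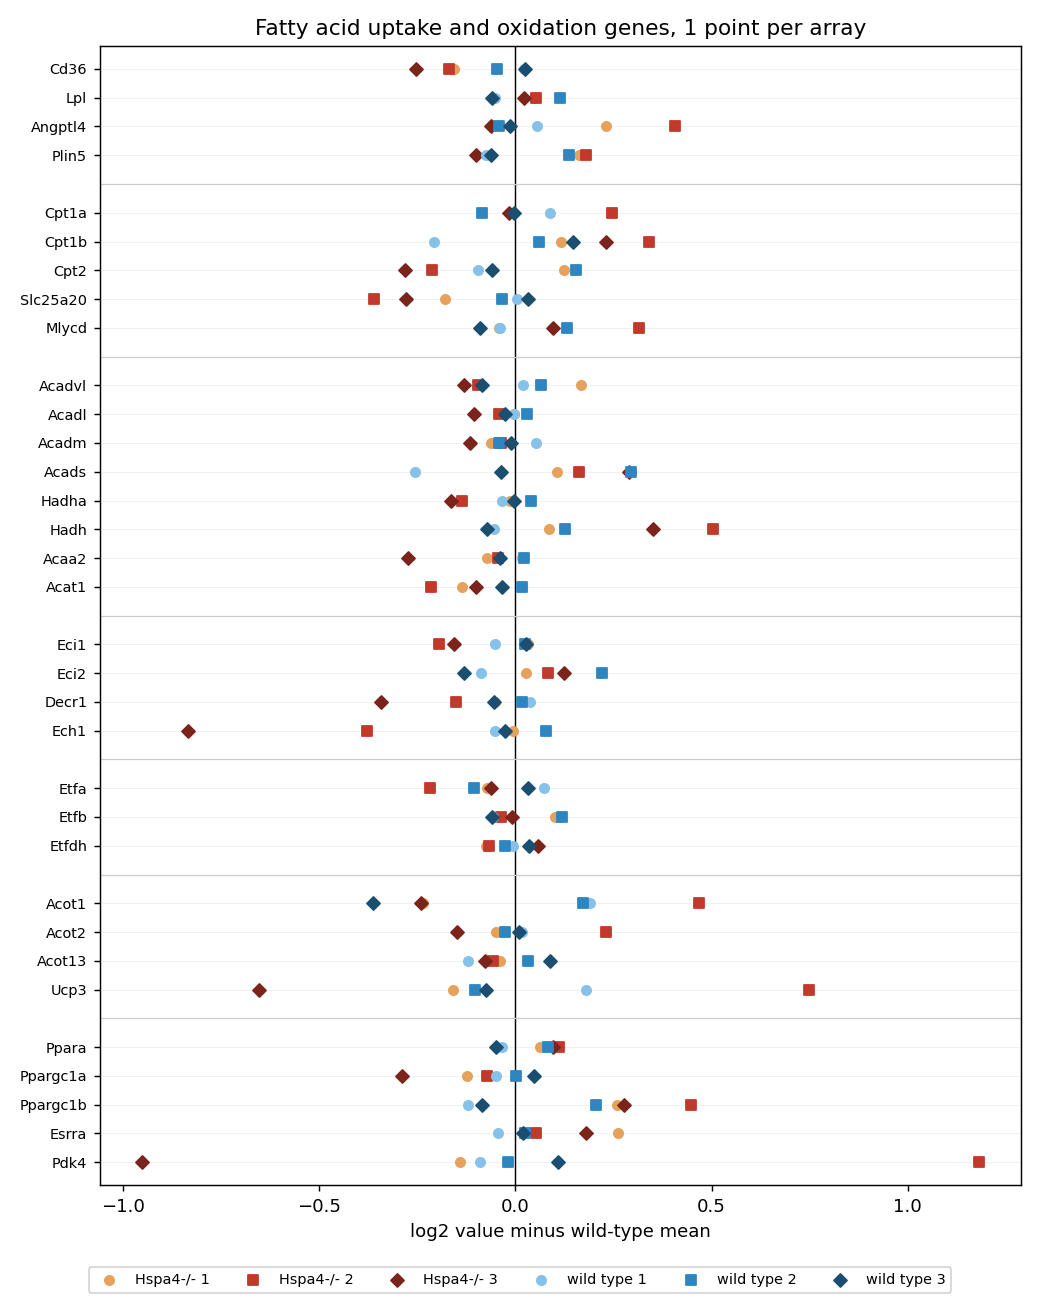
Log2 value of each of the 33 genes on each array minus its wild-type mean (x axis), with genes grouped by role (y axis) and 1 point per array. Most points lie close to the wild-type mean, while Pdk4 and Ucp3 spread widely, with the array labelled Hspa4-/- replicate 2 on the right and replicate 3 on the left.

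**Figure D2:**
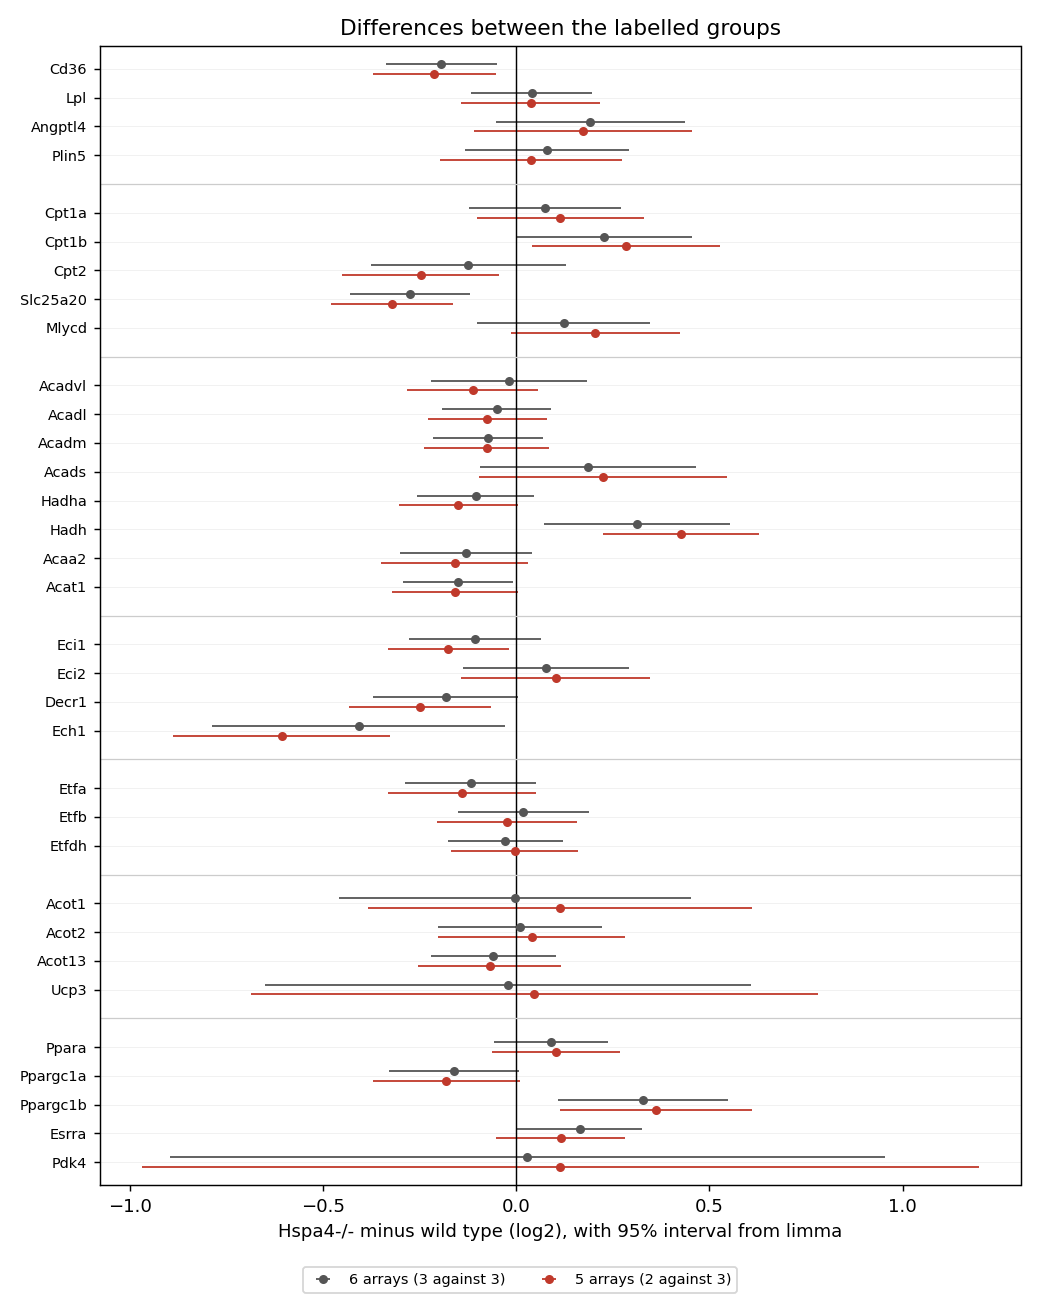
Mean of the Hspa4-/- label minus wild-type mean for each gene (log2, x axis), with limma's 95% interval as a bar, on 6 arrays (grey) and 5 arrays (red). Slc25a20, Cd36 and Ech1 lie to the left of 0 and Hadh and Ppargc1b to the right in both forms, while the intervals of Pdk4 and Ucp3 are the widest.

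Among the uptake genes, Cd36, the membrane protein that helps fatty acids into the cell, was the one whose groups stood apart. It read 11.54, 11.52 and 11.44 on the arrays labelled Hspa4-/- and 11.71, 11.65 and 11.72 in wild type. All 3 arrays labelled Hspa4-/- were below all 3 wild-type arrays, also the one with wild-type-like Hspa4. The difference was −0.19 (SE 0.06; limma, adjusted p = 0.304) on 6 arrays, a 1.14-fold gap, and −0.21 (SE 0.07; limma, adjusted p = 0.213) on 5.

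Lpl, the lipase that frees fatty acids from circulating lipoproteins, held a narrow range. Its values were 12.03, 12.04 and 12.01 on the arrays labelled Hspa4-/- and 11.93, 12.10 and 11.92 in wild type, and its difference of 0.04 in both forms had a 95% interval from −0.116 to 0.197 on 6 arrays. Its sign turned with quantile normalisation, to −0.013 on 6 arrays and −0.045 on 5. Angptl4, a secreted inhibitor of that lipase, read 6.16, 6.34 and 5.87 against 5.99, 5.89 and 5.92, with a difference of 0.19 (SE 0.11; limma, adjusted p = 0.571) on 6 arrays and 0.17 (SE 0.12) on 5. Replicate 3 of the Hspa4-/- label lay below wild type and the others above it. Plin5, which coats lipid droplets in oxidative tissue, had overlapping groups and a difference of 0.08 (95% interval −0.132 to 0.293) on 6 arrays and 0.04 (−0.197 to 0.275) on 5.

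In the carnitine shuttle, the translocase gene Slc25a20 had the smallest p of the 33 genes on 6 arrays. This carrier brings acylcarnitines through the inner mitochondrial membrane. It read 9.18, 9.00 and 9.08 on the arrays labelled Hspa4-/- and 9.37, 9.33 and 9.39 in wild type. The groups did not overlap, and the wild-type values lay close together. Slc25a20 was 9.09 ± 0.09 (SD, n = 3) against 9.36 ± 0.03 (SD, n = 3), a difference of −0.27 (SE 0.07; limma, adjusted p = 0.234) or 1.21-fold. On 5 arrays it was −0.32 (SE 0.07; limma, adjusted p = 0.0877). It passed only with wild-type replicate 2 left out of those 5 (−0.34; limma, adjusted p = 0.0482).

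The steps on either side of the translocase did not share its direction in all arrays. Cpt1b, the muscle form of the outer-membrane transferase that makes acylcarnitines, read 9.61, 9.83 and 9.72 against 9.28, 9.55 and 9.64 in wild type. Its difference was 0.23 (SE 0.10; limma, adjusted p = 0.440) on 6 arrays and 0.29 (SE 0.11; limma, adjusted p = 0.262) on 5, where the groups no longer overlapped. With quantile normalisation on those 5, 0 of the 5 shuttle genes were higher without overlap. Cpt2, the inner-membrane transferase that returns acyl groups to coenzyme A, read 9.52, 9.18 and 9.11 against 9.30, 9.55 and 9.34. Here the array labelled Hspa4-/- replicate 1 lay inside the wild-type range and the other arrays of its label below it. The difference of Cpt2 was therefore −0.12 (SE 0.11; limma, adjusted p = 0.762) on 6 arrays and −0.25 (SE 0.09; limma, adjusted p = 0.250) on 5.

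The liver form Cpt1a, also present in young heart, differed by 0.07 (95% interval −0.123 to 0.271) on 6 arrays and 0.11 (−0.102 to 0.332) on 5, with overlapping groups. Mlycd, which removes malonyl-CoA, the inhibitor of the outer-membrane step, read 7.03, 7.39 and 7.17 against 7.03, 7.21 and 6.98. Its difference was 0.12 (SE 0.10; limma, adjusted p = 0.727) on 6 arrays and 0.20 (SE 0.10; limma, adjusted p = 0.364) on 5. For both genes the highest of the 6 arrays was the one labelled Hspa4-/- replicate 2.

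Of the 8 genes of the beta-oxidation cycle, 6 had a lower and 2 a higher mean on the arrays labelled Hspa4-/-, in both forms and under both other scalings of the arrays. Hadh, the hydroxyacyl-CoA dehydrogenase for short and medium chains, had the largest difference of the cycle and an opposite sign to most of it. It read 9.51, 9.92 and 9.77 against 9.37, 9.55 and 9.35. Both arrays with low Hspa4 lay above all wild-type arrays, and the array labelled Hspa4-/- replicate 1 lay within their range. The difference of Hadh was 0.31 (SE 0.11; limma, adjusted p = 0.321) on 6 arrays. On 5 it was 0.43 (SE 0.09; limma, adjusted p = 0.0780), or 1.34-fold. It passed with array weights on those 5 arrays (0.44; limma, adjusted p = 0.0418) and without wild-type replicate 2 (0.49; limma, adjusted p = 0.0199).

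Hadha, the alpha subunit of the trifunctional protein that handles long chains, read 11.57, 11.45 and 11.42 against 11.55, 11.62 and 11.58. The first of these arrays sat among the wild-type values and the others below them, so the difference was −0.10 (SE 0.07) on 6 arrays and −0.15 (SE 0.07; limma, adjusted p = 0.347) on 5. The thiolase genes had small gaps. Acaa2 varied more on the arrays labelled Hspa4-/- (SD 0.12) than in wild type (SD 0.03). Its highest value under that label, 10.711, was just under the lowest wild-type value, 10.717. Acaa2, which cuts acetyl-CoA from the chain, read 10.68, 10.71 and 10.48 against 10.77, 10.78 and 10.72, and Acat1, which acts on acetoacetyl-CoA, read 10.47, 10.40 and 10.51 against 10.63, 10.63 and 10.58. For both, all 3 arrays labelled Hspa4-/- lay below all wild-type arrays, with differences of −0.13 (SE 0.08; limma, adjusted p = 0.587) and −0.15 (SE 0.06; limma, adjusted p = 0.423) on 6 arrays and −0.16 for each on 5.

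The 4 acyl-CoA dehydrogenases, which open the cycle and differ by chain length, had groups that overlapped on 6 arrays. On 6 arrays their differences were −0.02 for Acadvl, −0.05 for Acadl, −0.07 for Acadm and 0.19 for Acads. On 5 they were −0.11 for Acadvl and −0.07 for Acadl, both lower without overlap, and −0.08 for Acadm and 0.23 for Acads, both with overlap. On 6 arrays the 95% intervals of the long- and medium-chain enzymes were narrow, from −0.192 to 0.0911 for Acadl and from −0.214 to 0.0709 for Acadm. Acads, the short-chain enzyme, read 8.11, 8.16 and 8.29 against 7.75, 8.30 and 7.97. Its wild-type range enclosed every array labelled Hspa4-/-.

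Double bonds in unsaturated fatty acids need extra enzymes, and 3 of those 4 had lower means. Ech1, the dienoyl-CoA isomerase, had the largest difference of the 33 genes. It read 10.82, 10.45 and 9.99 on the arrays labelled Hspa4-/- and 10.77, 10.91 and 10.80 in wild-type mice. The array labelled Hspa4-/- replicate 1 lay within the wild-type range, and replicate 3 was the lowest. Ech1 differed by −0.41 (SE 0.17; limma, adjusted p = 0.413) on 6 arrays and by −0.61 (SE 0.12; limma, adjusted p = 0.0778) on 5, or 1.52-fold. On 5 arrays it passed with the lowest 50% of genes left out (limma, adjusted p = 0.0482). The fit without replicate 2 of that label leaves replicate 3 alone against wild type (−0.83; limma, adjusted p = 0.0358), with its spread assumed to be that of the wild-type arrays.

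Decr1, the dienoyl-CoA reductase, read 9.62, 9.52 and 9.33 against 9.71, 9.69 and 9.62. The arrays with low Hspa4 were below wild type, and the array labelled Hspa4-/- replicate 1 lay at its lower edge. Its difference was −0.18 (SE 0.08; limma, adjusted p = 0.457) on 6 arrays and −0.25 (SE 0.08; limma, adjusted p = 0.205) on 5. Eci1, an enoyl-CoA isomerase, differed by −0.11 (SE 0.08) and −0.18 (SE 0.07), and Eci2 by 0.08 (SE 0.10) and 0.10 (SE 0.11), in the same order.

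**Figure D3:**
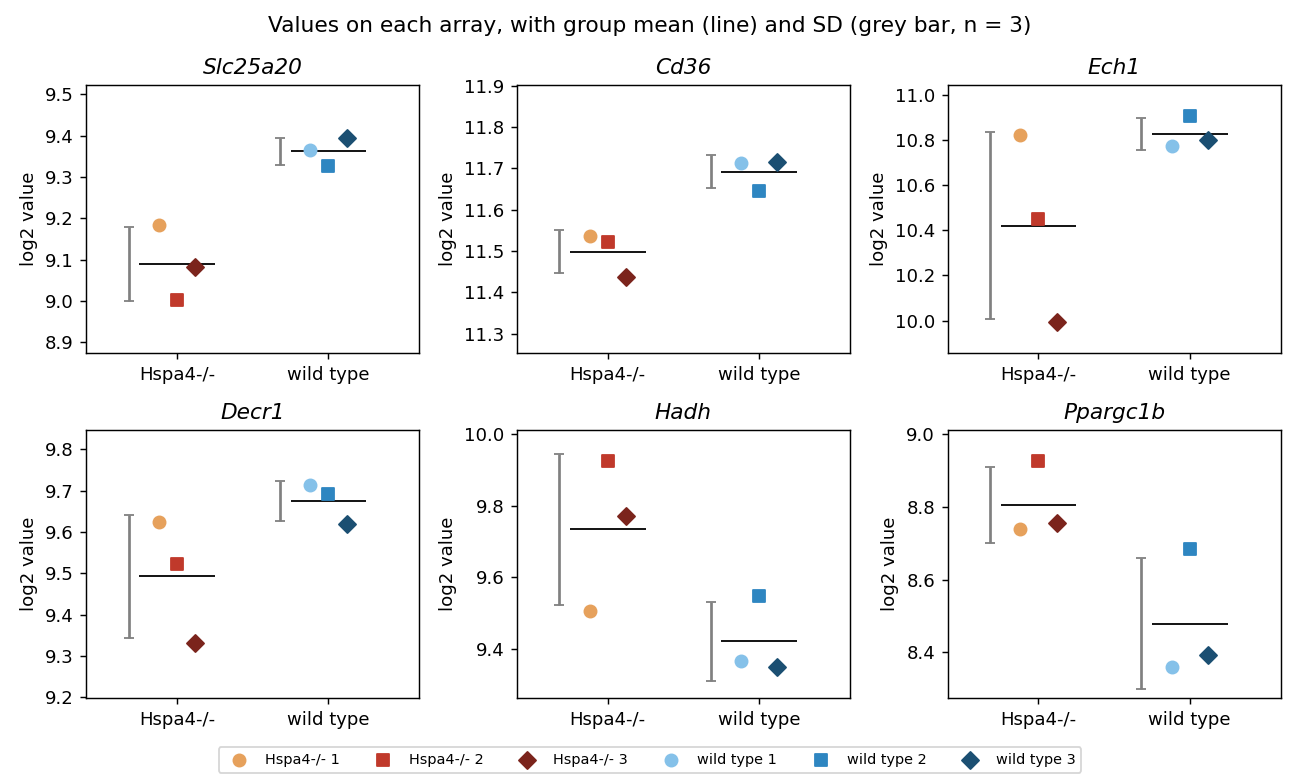
Log2 value of 6 genes on each array (y axis, a scale of its own per panel), by labelled group (x axis), with the group mean as a line and the SD over 3 arrays as a grey bar. Slc25a20 and Cd36 are below wild type on all 3 arrays labelled Hspa4-/-, and Ppargc1b above, while Ech1 and Hadh on replicate 1 lie with wild type.

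Electrons from the dehydrogenases pass to the electron transfer flavoprotein and from it to ubiquinone, and its genes showed little. Etfa, the alpha subunit, differed by −0.12 (95% interval −0.288 to 0.0527), Etfb, the beta subunit, by 0.02 (−0.151 to 0.187) and the oxidoreductase gene Etfdh by −0.03 (−0.177 to 0.121) on 6 arrays. On 5 they differed by −0.14, −0.02 and −0.0039. All 3 had overlapping groups in both forms. The sign of Etfb turned with quantile normalisation and without the array labelled Hspa4-/- replicate 1.

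Among the regulators, the PGC-1 coactivators differed from wild type in opposite directions, without passing the threshold. Ppargc1b read 8.74, 8.93 and 8.76 on the arrays labelled Hspa4-/- and 8.36, 8.69 and 8.39 in wild type. Ppargc1a read 8.96, 9.01 and 8.79 against 9.03, 9.08 and 9.13. Neither gene's groups overlapped, with every array labelled Hspa4-/- above wild type for Ppargc1b and below it for Ppargc1a. Ppargc1b was 8.81 ± 0.10 (SD, n = 3) against 8.48 ± 0.18 (SD, n = 3), a difference of 0.33 (SE 0.10; limma, adjusted p = 0.272) or 1.26-fold. Ppargc1a was 8.92 ± 0.11 (SD, n = 3) against 9.08 ± 0.05 (SD, n = 3), a difference of −0.16 (SE 0.07; limma, adjusted p = 0.465). On 5 arrays the differences were 0.36 (SE 0.11; limma, adjusted p = 0.180) and −0.18 (SE 0.08; limma, adjusted p = 0.359). Ppargc1b passed only with wild-type replicate 2, its highest wild-type array, left out of the 5 (0.47; limma, adjusted p = 0.0250).

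Esrra, the estrogen-related receptor that works with both coactivators, read 7.38, 7.17 and 7.30 against 7.08, 7.15 and 7.14. The groups did not overlap, and the highest value came from the array with wild-type-like Hspa4. Its difference was 0.16 (SE 0.07; limma, adjusted p = 0.442) on 6 arrays and 0.12 (SE 0.07; limma, adjusted p = 0.508) on 5. Ppara itself read 8.25, 8.30 and 8.28 against 8.15, 8.27 and 8.14, a difference of 0.09 with a 95% interval from −0.0568 to 0.237 on 6 arrays and of 0.10 on 5. The arrays labelled Hspa4-/- lay close together, with replicate 1 inside the wild-type range and the others just above it. With quantile normalisation, 1 of the 5 regulators was higher without overlap on 6 arrays and 1 on 5.

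Pdk4 had the widest spread of the 33 genes. Its product phosphorylates and so silences pyruvate dehydrogenase, which spares glucose when fat is burned. It read 9.82, 11.14 and 9.01 on the arrays labelled Hspa4-/- and 9.87, 9.94 and 10.07 in wild type. The arrays labelled Hspa4-/- replicates 2 and 3, which both had low Hspa4, lay on opposite sides of a tight wild-type group. The gap between them was 2.13 on the log2 scale, or 4.39-fold, the largest of all 20239 genes, where the median gene differed by 0.083. Group means of 9.99 ± 1.08 (SD, n = 3) and 9.96 ± 0.10 (SD, n = 3) gave a difference of 0.03 (SE 0.41; limma, adjusted p = 0.991). On 5 arrays the difference was 0.11 (SE 0.48). It was −0.95 with replicate 3 of that label alone and 1.18 with replicate 2 alone, fits in which 1 array is assumed to vary like wild type (limma, adjusted p = 0.0295 and 0.0136).

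Ucp3, a mitochondrial carrier of muscle whose transcript follows fatty acid supply, showed the same order of arrays. It read 6.88, 7.78 and 6.38 against 7.21, 6.93 and 6.96 in wild type. Its gap of 1.40 between the arrays labelled Hspa4-/- replicates 2 and 3, or 2.64-fold, was the third largest of all genes. The group difference of Ucp3 was −0.02 (SE 0.28; limma, adjusted p = 0.990) on 6 arrays and 0.05 (SE 0.32; limma, adjusted p = 0.965) on 5. Acot1, a cytosolic thioesterase that splits acyl-CoA, read 6.18, 6.89 and 6.18 against 6.61, 6.59 and 6.06. Its gap of 0.71 ranked 46, but wild type varied by 0.55. Acot2, its mitochondrial neighbour, read 8.82, 9.10 and 8.72 against 8.89, 8.85 and 8.88, a gap of 0.38 where wild type varied by 0.042. Acot1 and Acot2 are near-identical copies, so probes may not separate them fully and their values are uncertain.

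The gap ran one way through most of the set. The array labelled Hspa4-/- replicate 2 was above replicate 3 in 24 of the 33 genes, or 72.7%, beside 53% of all genes. Angptl4 (0.47) and Ech1 (0.46) lay between Acot1 and Acot2 in size, and Plin5 (0.28) and Cpt1a (0.26) came after Acot2, while Ppara (0.015) and Lpl (0.031) hardly differed between these arrays. The range over the 3 arrays labelled Hspa4-/- was wider than the wild-type range in 23 of the 33 genes, or 69.7%, beside 54.1% of all genes. That range includes replicate 1, with its wild-type-like Hspa4, so it does not measure the gap between replicates 2 and 3. For Cpt2, the range was 0.41 and that gap 0.07. Txnip, a glucose-responsive inhibitor of thioredoxin named after its values were seen, read 10.92, 12.03 and 10.80 against 10.58, 10.96 and 10.50, and its gap of 1.23 was the fifth largest. These are values of single mice, with no replicate for either side of the gap. Acot13, a thioesterase associated with mitochondria, showed no such spread, with 9.02, 9.00 and 8.98 against 8.93, 9.09 and 9.14.

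**Figure D4:**
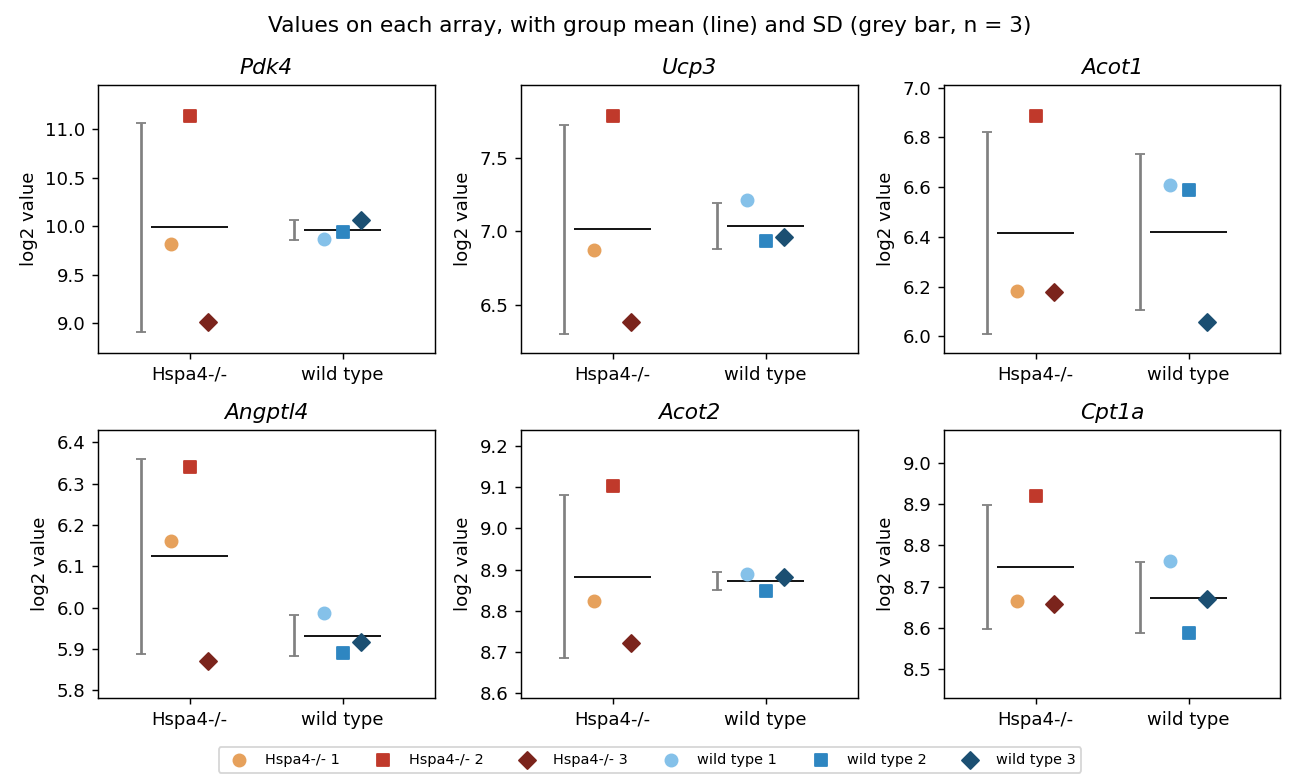
Log2 value of 6 genes on each array (y axis, a scale of its own per panel), by labelled group (x axis), with the group mean as a line and the SD over 3 arrays as a grey bar. In all 6 panels the array labelled Hspa4-/- replicate 2 is the highest of all arrays, and in Pdk4, Ucp3, Angptl4 and Acot2 replicate 3 is the lowest.

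**Figure D5:**
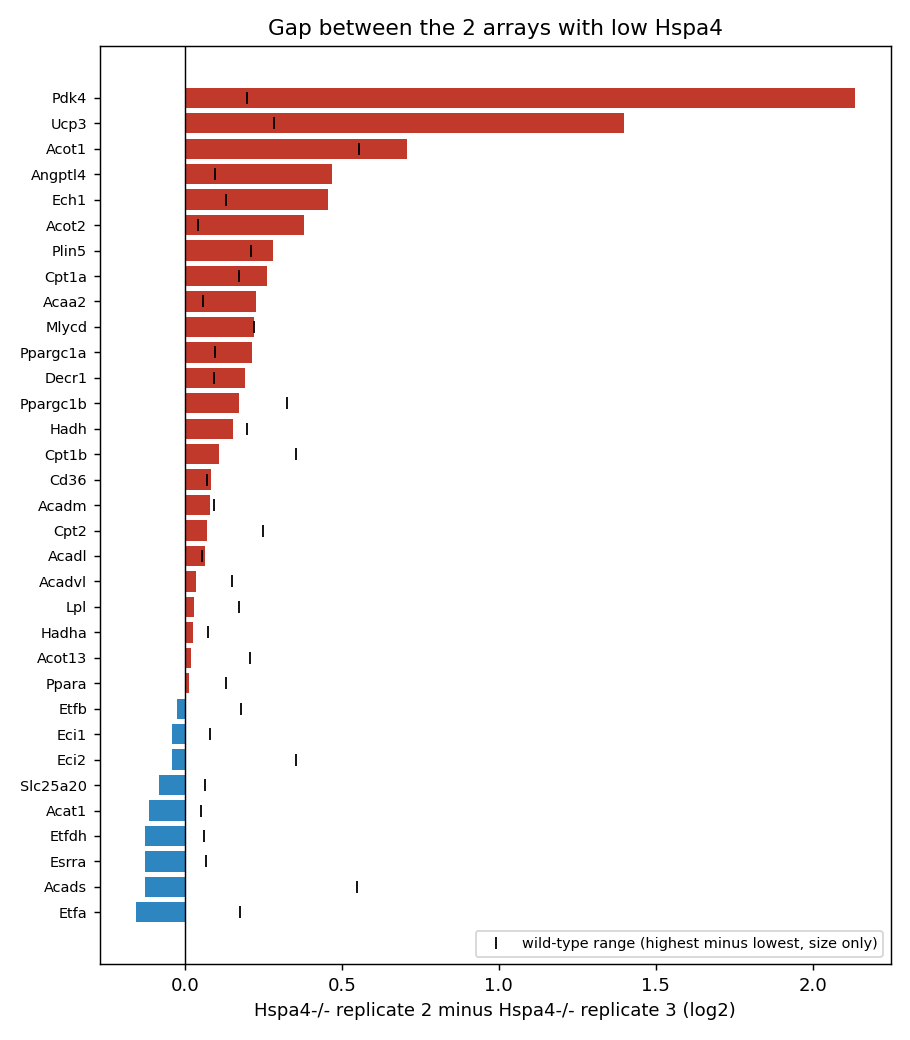
Log2 value on the array labelled Hspa4-/- replicate 2 minus that on replicate 3 for each of the 33 genes (x axis, bars from 0), with a black tick for the size of the wild-type range of the gene. Pdk4 at 2.13 and Ucp3 at 1.40 lie far beyond their wild-type ranges of 0.20 and 0.28.

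Promoters of 4 of these genes are shown because they were high together on a single array. They are the 250 bases before the start in RefSeq, build GRCm38.p6, on the strand of the gene, with capitals for the hexamer AGGTCA that nuclear receptors such as PPAR alpha bind in pairs.
Pdk4, chr6:5496279-5496528, minus strand: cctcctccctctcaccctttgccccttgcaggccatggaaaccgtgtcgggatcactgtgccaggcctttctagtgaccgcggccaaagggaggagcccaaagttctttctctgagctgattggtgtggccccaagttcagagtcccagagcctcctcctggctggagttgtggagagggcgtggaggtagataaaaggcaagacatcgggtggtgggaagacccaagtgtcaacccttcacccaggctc
Ucp3, chr7:100472741-100472990, plus strand: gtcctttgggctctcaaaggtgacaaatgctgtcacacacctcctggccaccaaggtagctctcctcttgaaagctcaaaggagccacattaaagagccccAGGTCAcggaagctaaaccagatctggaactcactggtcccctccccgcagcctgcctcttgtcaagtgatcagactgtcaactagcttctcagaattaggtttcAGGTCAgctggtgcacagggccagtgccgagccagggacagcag
Acot1, chr12:84009252-84009501, plus strand: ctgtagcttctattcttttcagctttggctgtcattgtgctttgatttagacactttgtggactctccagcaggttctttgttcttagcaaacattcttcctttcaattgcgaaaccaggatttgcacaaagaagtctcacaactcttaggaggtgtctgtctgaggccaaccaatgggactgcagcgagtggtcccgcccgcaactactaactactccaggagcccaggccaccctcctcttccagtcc
Acot2, chr12:83987611-83987860, plus strand: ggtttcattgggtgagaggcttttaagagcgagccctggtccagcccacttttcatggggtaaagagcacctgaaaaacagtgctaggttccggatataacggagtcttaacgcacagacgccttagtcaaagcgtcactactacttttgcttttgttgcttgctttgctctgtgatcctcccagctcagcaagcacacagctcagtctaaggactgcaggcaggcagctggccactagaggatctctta
Ucp3 held the hexamer at 149 to 144 and at 44 to 39 bases before the start, and the other three held none on either strand. Promoters were matched for 25 of the 33 genes. Of these 25, the hexamer was found in 6, or 24%, beside 14% of 32851 promoter windows of the same length: Acadm, Acadvl, Cd36, Cpt1a, Plin5 and Ucp3. A gene of the 25 counted if any of its windows matched, while the background counts single windows. The shares here and below are therefore not in the same unit. The PPAR response element, a direct repeat of the hexamer with 1 free base between the copies, was found in 0 of the 25 and in 0.0335% of all windows. A looser form, with AGGNCA for each copy, was found in 0 and 0.338%, and the element TNAAGGTCA of estrogen-related receptors in 0 and 1.14%. Both strands were searched, and the strict pair and the last element contain the hexamer. These matches describe letters in a short window only.

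The rest of the pathway was described from 9 further lists of 128 genes, of which 113 were measured, and 0 of the 113 passed in either form (limma). At an unadjusted p under 0.05, the 13 measured genes of other mitochondrial acyl-CoA breakdown held 5 lower and 0 higher, on 6 arrays and on 5. This list had the most lower genes at that p of the 9, so it is an extreme picked from them. The other lists held 0 to 3 lower and 0 to 2 higher on 6 arrays. On 5 they held 0 to 1 lower and 0 to 2 higher. Of all genes, 5.53% and 6.36% were lower at that p, and 5.64% and 8.55% higher. The median difference of the 13 was −0.14 on 6 arrays, beside −0.0094 over all genes. On 6 arrays 12 of 13 were lower, beside 10961 of all 20239 genes. Of the 12, 6 were without overlap, beside 9.07% of all genes lower without overlap. The count of 12 held on 6 arrays under both other scalings, with 5 without overlap in each. Quantile normalisation left 1749 of all 20239 genes lower without overlap, and subtraction of array medians 2073. On 5 arrays 10 of 13 were lower, beside 11469 of all 20239 genes, and 7 of them without overlap, beside 18.9% of all genes. Several of these enzymes work on branched amino acids or propionyl-CoA. Acad8, a dehydrogenase of valine breakdown, read 10.26, 9.70 and 10.12 against 10.60, 10.33 and 10.53, a difference of −0.46 (SE 0.14; limma, adjusted p = 0.270) on 6 arrays and −0.58 (SE 0.13; limma, adjusted p = 0.0950) on 5.

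In the list of uptake, binding and activation, Gpihbp1, which anchors lipoprotein lipase on capillaries, read 7.37, 7.50 and 7.43 against 7.20, 7.22 and 7.17 (difference 0.23, SE 0.06; limma, adjusted p = 0.250; 0.27 on 5 arrays). Lmf1, which matures that lipase, differed by 0.23 on 6 arrays and 0.40 on 5 (SE 0.09; limma, adjusted p = 0.0944). Of the lipid droplet genes, the lipase gene Lipe read 7.87, 7.98 and 7.69 against 7.26, 7.67 and 7.53 (difference 0.36, SE 0.11; limma, adjusted p = 0.286; 0.35 on 5 arrays), while the lipase cofactor gene Abhd5 differed by −0.16 and −0.23. The 8 markers of endothelial cells, in which Gpihbp1 is made, had a summed linear level of 3585 to 4201 on the arrays labelled Hspa4-/-. In wild type it was 3644 to 3864. The sum hides single genes, as 6 of the 8 were higher on 6 arrays and 5 on 5. On 6 arrays Egfl7 (0.33) was higher without overlap, beside 6.08% of all genes. Esam (0.29) and Tie1 (0.22) were higher and Kdr (−0.16) and Tek (−0.15) lower, all with overlap. The part of these cells was not tested.

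The catalytic subunit genes of AMP-activated kinase, which restrains malonyl-CoA synthesis, were lower without overlap. Prkaa1 read 8.83, 8.78 and 8.58 against 9.04, 9.01 and 8.97 (difference −0.28, SE 0.08; limma, adjusted p = 0.256; −0.33 on 5 arrays). Prkaa2, named after its values were seen, differed by −0.16 (SE 0.07; limma, adjusted p = 0.423) and by −0.17 on 5 arrays. The regulatory subunit genes, also named after their values were seen, did not share this direction. On 6 arrays and on 5, Prkab1 differed by 0.16 and 0.21, Prkag1 by 0.22 and 0.31, Prkag2 by 0.04 and 0.15 and Prkab2 by −0.04 and −0.11. Oxct1, an enzyme of ketone body use, read 10.66, 10.52 and 10.50 against 10.82, 10.75 and 10.75 (difference −0.21, SE 0.07; limma, adjusted p = 0.292; −0.26 on 5 arrays). In the list of PPAR, ERR and PGC-1 partners, 14 of 22 were higher on 6 arrays and 17 on 5, beside 9278 and 8770 of all 20239 genes. With quantile normalisation 12 and 15 of the 22 were higher, beside 10196 and 10074 of all 20239 genes. Klf15, a transcription factor of fasting and lipid use, was the furthest up, with 8.12, 8.21 and 8.26 against 7.67, 8.07 and 7.63 (difference 0.41, SE 0.11; limma, adjusted p = 0.250; 0.45 on 5 arrays). Without wild-type replicate 2, its highest wild-type array, Klf15 passed in both forms. The peroxisomal oxidase gene Acox3 differed by 0.22, the kinase gene Pdk3 by 0.18 and the thioesterase genes Acot7 and Acot9 by 0.13 and 0.15, with 0.26 for Pdk3 and 0.32 for Acot9 on 5 arrays (limma, adjusted p = 0.160 and 0.154).

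The position of the array labelled Hspa4-/- replicate 1 differed between genes. Of the 17 genes whose groups did not overlap on 5 arrays, this array lay on the side of its label in 7 and within the wild-type range in 8. Over all genes, 6743 did not overlap on 5 arrays, and this array lay on the side of its label in 3066. The 7 of 17 were thus near the share of all genes. For the 8 within the wild-type range, no share over all genes was computed. That count cannot be read as particular to these genes. The 7 were Cd36, Slc25a20, Acaa2, Acat1, Ppargc1a, Ppargc1b and Esrra. The 8 were Cpt1b, Cpt2, Acadl, Hadha, Hadh, Decr1, Ech1 and Ppara. For Acadvl and Eci1 it lay above all wild-type arrays and the other arrays of its label below them.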

How the data were processed

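The authors deposited 1 table of log2 values for 6 arrays, with probe sets grouped by Entrez gene. Per the submitters' processing notes, R 2.13.0 and affy were used. The sources used here do not say how background was corrected, arrays normalised or probes summarised, and the table carries no background measure. Of 21225 probe sets, 20239 had 1 gene symbol in the platform annotation and were tested, and 986 had none. All 20239 were found by gene number in RefSeq (GRCm38.p6), with 0 symbols updated.

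Groups were compared with limma 3.58.1 in R 4.3.3 (lmFit and eBayes, two-sided), with no filter on low values and Benjamini-Hochberg adjustment over all 20239 genes, at a threshold of 0.05. Each result was computed in 2 forms: with all 6 arrays, and with 5 arrays, leaving out replicate 1 of the Hspa4-/- label. The fits were tested on simulated data. Members, gene lists and cell type markers were chosen with earlier results of these data known. Genes named from the 9 further pathway lists are those with the smallest p of each list in either form, and exceptions are said to be so. Summed marker levels are sums of the values after undoing the log2. Alternatives were a filter on the lowest 25% or 50% of genes, quantile normalisation, subtraction of array medians, array weights, an intensity trend, a replicate block and leaving out each array. Same-numbered mice did not deviate together (correlations −0.17, 0.092 and −0.25), so the numbers were not used as pairs. Identical values between any pair of arrays numbered 11 to 30.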

Additional observations from a re-analysis of the deposited data

How the results depend on the processing

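No gene of the 33 passed on 6 arrays under any alternative. On 5 arrays the count was 1 without the lowest 50% of genes (Ech1), 1 with array weights (Hadh) and 0 to 3 with each array left out: Ech1 and Pdk4 without the array labelled Hspa4-/- replicate 2, Pdk4 without replicate 3 (fits that leave 1 array of that label, assumed to vary like wild type), and Slc25a20, Hadh and Ppargc1b without wild-type replicate 2. With the replicate number as a block, the count of genes was 2 on 6 arrays and 134 on 5, where 1 of the 33 (Ech1, −0.63; limma, adjusted p = 0.0318) and 1 further pathway gene (Acad8) passed. The replicate numbers share only a number, not a pairing.

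Over all genes, 2 passed on 6 arrays without the lowest 25% or 50%, 115 with array weights and 0 to 112 with an array left out. On 5 arrays, where 89 passed, the counts were 156 and 167 with those filters, 36 with array medians subtracted, 321 with array weights and 2 to 875 with an array left out. Further pathway genes past the threshold were 0 to 1 and 0 to 6 with an array left out. Members without overlap were 9 to 17 on 6 arrays and 17 to 27 on 5 with an array left out. The matching shares of all genes were not computed, so these counts cannot be read as particular to the members. Fewer arrays leave less overlap in any gene: 15.1% of all genes were free of it on 6 arrays and 33.3% on 5. The median of the 33 turned to 0.0084 with array weights on 6 arrays and ran from −0.059 to 0.037 with an array left out. On 5 arrays it turned to 0.0052 with array medians subtracted and ran from −0.10 to −0.0045.

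On 6 arrays quantile normalisation turned Etfb (−0.020), Lpl (−0.013) and Acot1 (0.0040), and array weights turned Ucp3 (0.20) and Acot1 (0.15). On 5 arrays quantile normalisation turned Lpl (−0.045), Acot2 (−0.00031) and Plin5 (−0.015), and array medians turned Etfdh (0.0052). On 6 arrays, the differences whose sign turned with an array left out ran over these values: Etfb −0.023 to 0.077, Ucp3 −0.41 to 0.29, Acot1 −0.24 to 0.12, Acadvl −0.11 to 0.037, Cpt1a −0.012 to 0.12, Acot2 −0.10 to 0.090 and Pdk4 −0.55 to 0.52. On 5 arrays, the differences whose sign turned with an array left out ran over these values: Cpt1a −0.016 to 0.25, Acot2 −0.15 to 0.23, Ucp3 −0.65 to 0.75, Acot1 −0.24 to 0.47, Pdk4 −0.95 to 1.18, Angptl4 −0.061 to 0.41, Etfdh −0.066 to 0.059, Plin5 −0.10 to 0.18 and Etfb −0.053 to 0.036. The causes were not tested.

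Groups of 2 and 3 arrays limit every value here.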
